A study of Rattus norvegicus with 3 samples.

Results

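Elastase, encoded by Elane, is a serine protease that developing neutrophils store in their primary granules, and 1 cluster of each single-cell library was chosen by its mean count of this gene. In each library the cluster with the highest deposited Elane mean was taken, except that UAC cluster 13 was left out of the choice. This gave 3 of the 52 deposited clusters, namely sham cluster 14, UAC cluster 8 and UAC + miR-330 cluster 18. They are called the members here and not by a cell type, because UAC cluster 8 is second in Elane to cluster 13 and did not carry the other genes of an early granulocyte.

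The tissue was cartilage with subchondral bone from the mandibular condyles of wild-type SD rats, and all rats received an AAV injection into the temporomandibular joint. Sham rats received Vector AAV and no unilateral anterior crossbite (UAC), a dental device that loads the joint abnormally and gives a model of osteoarthritis. The UAC group had the crossbite with Vector AAV, and the UAC + miR-330 group had the crossbite with miR-330 AAV, which carries a microRNA, an assignment read from the study's design because the sample labels of the 2 UAC groups give the same treatment; AAV rats were kept for 8 weeks by the study's methods, and age and sex are not in the labels. Each group had 8 rats, whose 16 condyles were pooled into 1 library. The rats of a pool cannot be told apart, so no value has a replicate and no test between groups was made.

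In each cluster, every deposited mean count was a whole multiple of the smallest positive mean of that cluster, which returned the UMIs (unique molecular identifiers, each marking 1 captured RNA molecule). The libraries held 77668015 UMIs (sham), 92629658 (UAC) and 97255383 (UAC + miR-330), in 15, 18 and 19 clusters. Levels are UMIs per 1000000 UMIs of the cluster (CPM) with exact Poisson 95% intervals, which cover counting error only, so variation among rats or among library preparations is outside them. The number of cells in a cluster was not used here, so fewer cells of a type and less RNA per cell cannot be told apart.

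Neutrophils are made in bone marrow, which lies within subchondral bone, and they fill their granules in an order. Promyelocytes make the primary granules with myeloperoxidase, serine proteases and, in rats, alpha defensins. Myelocytes and metamyelocytes then make secondary granules, and mature cells carry chemokine receptors and the S100a8 and S100a9 proteins while they have stopped dividing.

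The Elane level that chose the clusters was 710.0 CPM in sham cluster 14 (95% interval 669 to 753, 1100 UMIs). In UAC cluster 8 it was 78.2 CPM (66.9 to 90.7, 173 UMIs). It was 1621 CPM in UAC + miR-330 cluster 18 (1579 to 1663, 5645 UMIs). The UAC member was therefore far below the others by the very gene that chose it. Just outside the choice, the next clusters reached 39.4 CPM in sham, 60.0 CPM in UAC (cluster 18, 52.0 to 69.0) and 52.1 CPM in UAC + miR-330. The left-out UAC cluster 13 had 968 CPM (936 to 1002). Over the clusters other than these 5, the median Elane level was 1.06 CPM in sham and 1.65 CPM in UAC, and their highest level in any library was the 52.1 CPM of UAC + miR-330.

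The 3 clusters held 1549261, 2213619 and 3483346 UMIs, in the order sham, UAC and UAC + miR-330. These were 1.99%, 2.39% and 3.58% of their libraries, a share of RNA and not of cells. At least 1 UMI was found for 12714, 11629 and 12865 genes.

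Mpo, which encodes myeloperoxidase (ENSRNOG00000008310), separated the members in the same way as Elane (ENSRNOG00000033685). It stood at 955 CPM in sham cluster 14 (907 to 1005) and 1125 CPM in UAC + miR-330 cluster 18 (1089.8 to 1161). UAC cluster 8 had 8 Mpo UMIs, 3.61 CPM (1.56 to 7.12), where the median of the UAC clusters other than 8, 13 and 18 was 2.74 CPM. Prtn3 (ENSRNOG00000029814), which encodes proteinase 3, had 249 CPM in sham cluster 14 (224 to 275) and 690.1 CPM in UAC + miR-330 cluster 18 (663 to 718). In UAC cluster 8 it had 1 UMI. By these markers sham cluster 14 and UAC + miR-330 cluster 18 carry the early granulocyte genes and the UAC member does not, although the genes that lead sham cluster 14 are of other lineages, as given below. The cluster highest in Mpo and in Prtn3 was the same as the cluster highest in Elane in the sham and the UAC + miR-330 libraries. In UAC it was cluster 13, at 778 CPM of Mpo, and cluster 18 at 297 CPM once cluster 13 was left out. UAC cluster 8 is instead the UAC cluster highest in Cxcr2, the chemokine receptor of late neutrophils, at 242 CPM (222 to 264).

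**Figure D1:**
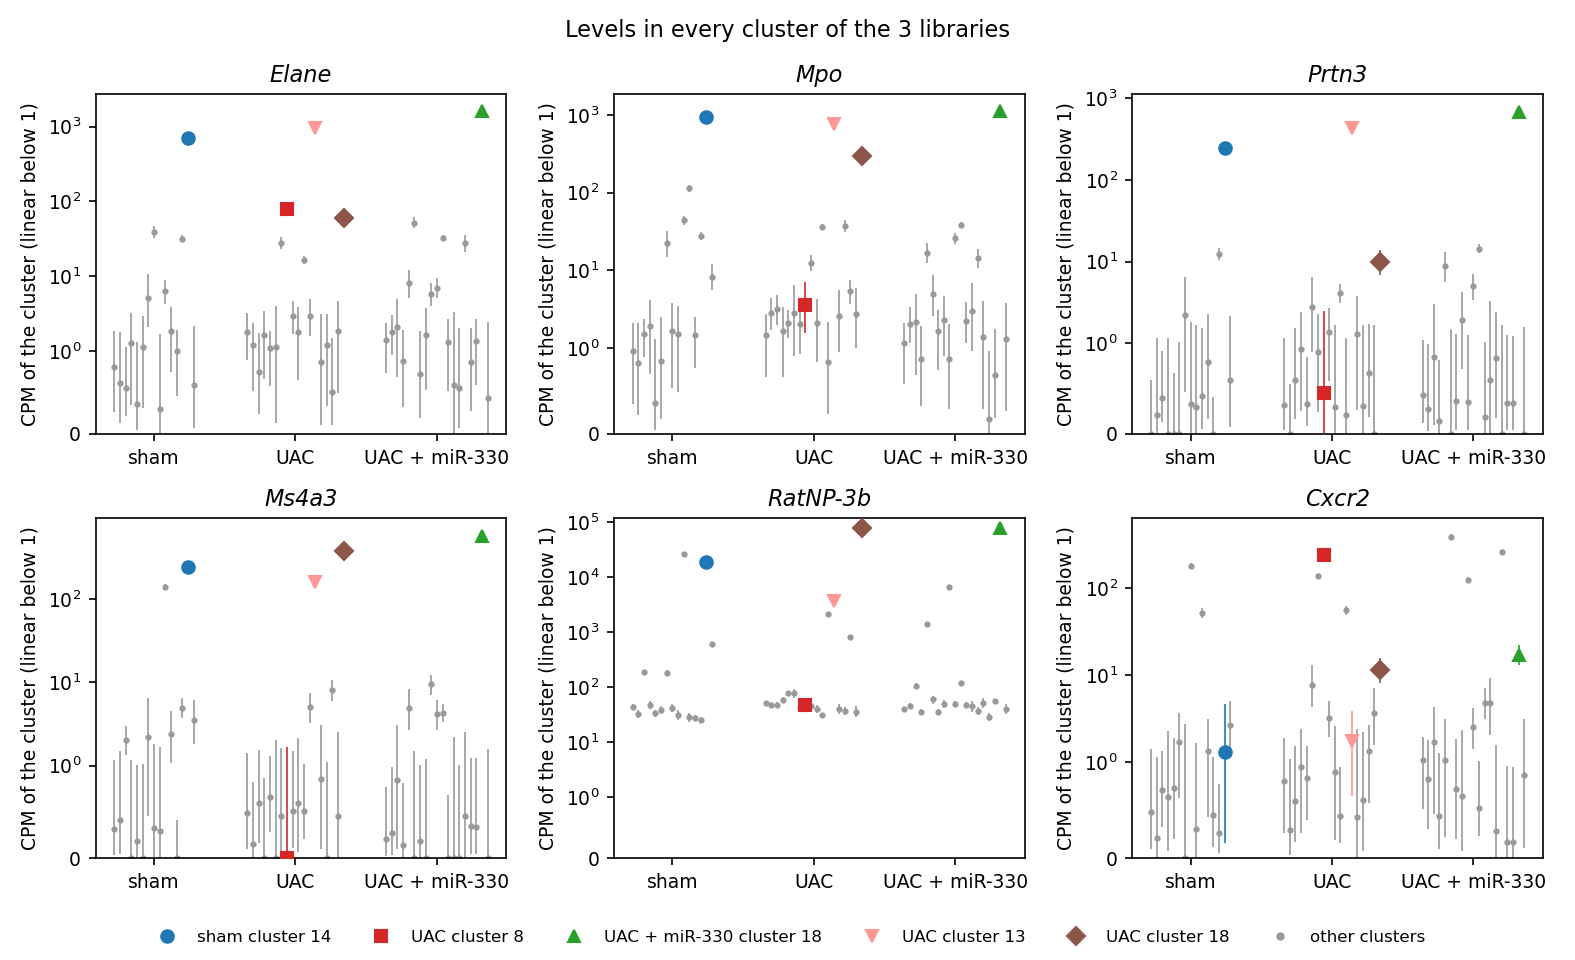
Level of 6 genes in each of the 52 clusters, as CPM of the cluster on a log axis that is linear below 1, with bars for the Poisson 95% interval and 1 column of points per library. For Elane, Mpo and Prtn3, sham cluster 14 and UAC + miR-330 cluster 18 stand above the other clusters of their libraries, and UAC cluster 8 is the highest of its library for Cxcr2 alone.

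The genes that mark each member against the rest of its own library tell the same difference. The 50 leading genes of a cluster, those with the highest ratio to the other clusters of that library, were shared to the number of 19 between sham cluster 14 and UAC + miR-330 cluster 18. UAC cluster 8 shared 0 of its 50 with either of them. It shared 35 with sham cluster 8 and 43 with UAC + miR-330 cluster 6, which are the Cxcr2-highest clusters of those libraries. Sham cluster 14 shared most with UAC cluster 13, 30 of 50, and UAC + miR-330 cluster 18 shared most with UAC cluster 18, 21 of 50, and 19 with UAC cluster 13. The 19 genes do not single out cluster 18 of UAC + miR-330. Its cluster 5, at 8.11 CPM of Elane, shared 18 with sham cluster 14 and 17 with UAC cluster 13.

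The named genes leading sham cluster 14 were, in order, Igh-6, Tnfrsf17, Hba-a3, Prss29, Alas2, Hba-a1, Hba-a2 and Hbb, mostly red cell and immunoglobulin or plasma cell genes, and Ctsg and Prtn3 ranked 13 and 15. Leading those of UAC + miR-330 cluster 18 were Defa11, Ms4a3, Prss34, Prtn3, Defa5, Prg2, Elane and Np4. UAC cluster 8 was led by Ifit3, Ifit1bl, Isg15, Ccl6, Hcar2, Ifit1 and Stfa2, of which the Ifit genes and Isg15 are interferon stimulated and Ccl6 encodes a chemokine. Across genes with at least 50 UMIs in both clusters together, the Spearman correlation of levels was 0.636 between sham cluster 14 and UAC + miR-330 cluster 18 (6301 genes). It was 0.247 between sham cluster 14 and UAC cluster 8 (4958 genes) and 0.482 between UAC cluster 8 and UAC + miR-330 cluster 18 (6420 genes). The value for UAC + miR-330 cluster 18 reached 0.925 with UAC cluster 18 (6550 genes), and sham cluster 14 reached 0.823 with UAC cluster 13 (5726 genes). Genes are not independent replicates, and these correlations are descriptions.

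No gene marked all members. Of 1799 genes with at least 50 UMIs in each of the 3 clusters, 0 were higher in the member than in every other cluster of its library in all 3 libraries. The nearest was Ubb, a polyubiquitin gene, whose lowest ratio to the highest other cluster was 0.792, followed by Mgst1, a glutathione transferase, at 0.729. Arsb stood at 0.642, Suco at 0.641, Mt-co1 at 0.611, Bnip3l at 0.596, Rap1a at 0.593, Cd82 at 0.582 and Lman2 at 0.550. Srgn encodes serglycin, the proteoglycan that packs granule proteins, and its lowest ratio of 0.589 came from UAC cluster 8, against 2.63 in sham and 3.83 in UAC + miR-330.

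The granule serine proteases followed Elane and Prtn3. Ctsg (ENSRNOG00000020647), which encodes cathepsin G, was at 556 CPM in sham cluster 14 (519 to 594) and 1236 CPM in UAC + miR-330 cluster 18 (1199 to 1273). UAC cluster 8 had 6 Ctsg UMIs, 2.71 CPM. The protease gene Prss57 was scarce throughout, with 13, 0 and 37 UMIs in the members of sham, of UAC and of UAC + miR-330, but its highest level in sham and in UAC + miR-330 was in the member. The UMIs of Elane, Mpo, Prtn3 and Ctsg added up to 2469.6 CPM in sham cluster 14, 84.9 CPM in UAC cluster 8 and 4671 CPM in UAC + miR-330 cluster 18. Elane made up 173 of the 188 UMIs behind the UAC sum, so the Elane UMIs of that cluster came with few UMIs of the other 3 genes.

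Ms4a3 (ENSRNOG00000036625), a membrane protein gene used to trace granulocyte and monocyte progenitors, had 243 CPM in sham cluster 14 (219 to 269). It had 573 CPM in UAC + miR-330 cluster 18 (548 to 599) and 0 UMIs in UAC cluster 8, where the 95% bound is 1.67 CPM. Nkg7, a granule membrane protein gene, showed 409 CPM, 1.81 CPM and 845 CPM in the members of sham, of UAC and of UAC + miR-330. Cst7, which encodes the cathepsin inhibitor cystatin F, showed 56.2 CPM, 0.452 CPM and 129 CPM. Both genes were low in the UAC member and highest in the UAC + miR-330 member. Serpinb1a encodes an inhibitor of elastase, and its 3601 CPM in UAC + miR-330 cluster 18 (3538 to 3665) was above the 612 CPM in sham cluster 14 (574 to 652) and the 187 CPM in UAC cluster 8 (169 to 206). Srgn had 5490.4 CPM, 3311 CPM and 12146 CPM in the same order.

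Not every primary granule gene had the order of Elane. Ctsc, which encodes the protease that activates elastase and its relatives, was highest of all UAC clusters in UAC cluster 8, at 1134 CPM (1090.4 to 1179.6). It had 93.6 CPM in sham cluster 14 (79.0 to 110.1) and 152 CPM in UAC + miR-330 cluster 18 (139 to 165). Lyz2, the lysozyme gene, stood at 16508 CPM in UAC cluster 8, 6029 CPM in UAC + miR-330 cluster 18 and 651 CPM in sham cluster 14. Ctsc and Lyz2 were thus the primary granule genes called higher in the UAC member than in both others. The tetraspanin gene Cd63, a granule membrane marker, differed less, with 489 CPM in sham, 592 CPM in UAC and 979 CPM in UAC + miR-330. The lysosomal enzyme gene Gusb had 21.9 CPM, 1.36 CPM and 53.4 CPM, and Bpi, a bactericidal protein gene, had 0, 4 and 2 UMIs.

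Counts across genes were then set beside the same counts for all genes. A gene was compared where the 2 clusters together held at least 50 UMIs, and called higher or lower where the CPM ratio, with 0.5 UMI added, was at least 2 and the 95% intervals did not overlap. A gene can pass the 50 UMIs through 1 cluster alone, so for a list that is near 0 in the other cluster the direction of the calls is largely fixed by this minimum. Of 4958 genes, 1882 (38.0%) were higher and 1039 (21.0%) lower in UAC cluster 8 than in sham cluster 14, with a median log2 ratio of 0.50. Of 6420 genes, 2211 (34.4%) were higher and 1197 (18.6%) lower in UAC + miR-330 cluster 18 than in UAC cluster 8, with a median log2 ratio of 0.37. These shares compare clusters with unlike markers, and both comparisons hold the same UAC cluster. Higher genes were 64.4% of those called for UAC against sham. They were 50.5% once genes named as those of mitochondria, ribosomal proteins, haemoglobins and immunoglobulins were taken out of the CPM, in which unnamed entries stayed. For UAC + miR-330 against UAC they were 64.9%, then 68.2% without those genes, 72.4% without granule and defensin genes and 72.2% on unscaled means. Centring the ratios on their median, which brings the split near even by construction, gave 48.6% and 50.8%. List medians below are uncentred and are to be read against these medians of all genes. List counts between the members are to be read against 38.0% higher and 21.0% lower, then 34.4% and 18.6%.

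Of the 15 primary granule genes, 12 could be compared between UAC and sham, and 8 were lower and 2 higher, Ctsc and Lyz2, with a median log2 ratio of -4.78. The list summed to 10544 CPM in sham cluster 14, 21824 CPM in UAC cluster 8 and 29190 CPM in UAC + miR-330 cluster 18. Lyz2 led the UAC sum and Srgn those of the other members, so the UAC sum did not fall with the median. Between UAC + miR-330 and UAC, 13 could be compared, and 10 were higher and 2, again Ctsc and Lyz2, lower, with a median of 5.08. Both medians are unchanged when a gene at 0 UMIs in 1 cluster is set at its bound of 3 UMIs. Elane itself, which chose the clusters, is part of these counts. The share lower in the first step, 8 of 12, stands beside 21.0% of all genes, and nothing particular to the list is read from it, since the clusters differ in kind.

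Alpha defensins, small antimicrobial peptides that rat neutrophils store in the primary granules, had the largest median ratio of all lists between UAC + miR-330 and UAC, while the erythroid sum differed by more between UAC and sham. RatNP-3b (ENSRNOG00000038135) reached 79035 CPM in UAC + miR-330 cluster 18 (78740.0 to 79331) and 19151 CPM in sham cluster 14 (18934 to 19370.2). In UAC cluster 8 it had 48.3 CPM (39.6 to 58.4), near the median of 46.8 CPM in the UAC clusters other than 8, 13 and 18. Np4 (ENSRNOG00000028707) had 10238 CPM, 45.6 CPM and 39969.6 CPM in the members of sham, of UAC and of UAC + miR-330. Defa5 (ENSRNOG00000030093) had 7959 CPM, 33.9 CPM and 23736 CPM, and Defa11 had 403 CPM, 1.36 CPM and 1507 CPM. In each of these 4 genes the order was UAC lowest, sham between and UAC + miR-330 highest, with the 95% intervals apart.

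The defensin UMIs added up to 37752 CPM in sham cluster 14, 130 CPM in UAC cluster 8 and 144251 CPM in UAC + miR-330 cluster 18, that is 14.4% of all UMIs of the last. Of 11 listed defensins 8 were in the tables, and Defa8, Defa10, Defal1 and Defa24 had too few UMIs to compare. All 4 that could be compared were lower in UAC cluster 8 than in sham cluster 14 (median log2 ratio -7.93) and all 4 were higher in UAC + miR-330 cluster 18 than in UAC cluster 8 (median 9.83). Defensin genes are close copies, so reads may be shared among them, and the split among the names is uncertain while the sum is less so. Per UMI of Mpo, Prtn3 and Ctsg, with Elane left out because it chose the clusters, there were 21.5 defensin UMIs in sham cluster 14, 19.1 in UAC cluster 8, from 15 UMIs of the 3 genes, and 47.3 in UAC + miR-330 cluster 18. The UAC clusters next to the choice split these genes between them, with 3.32 in cluster 13 and 398 in cluster 18. Leaving out Elane was chosen after seeing the data. In UAC + miR-330, cluster 18 thus held together the proteases that lay mainly in UAC cluster 13 and the defensins that lay mainly in UAC cluster 18.

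Secondary granule genes did not share a single order. Of 16 that could be compared, 12 were higher and 0 lower in UAC cluster 8 than in sham cluster 14, with a median log2 ratio of 4.21. Against UAC cluster 8, UAC + miR-330 cluster 18 was higher in 6 and lower in 8 of 18, with a median of -0.02. Of all genes 38.0% were higher and 21.0% lower in the first comparison, and 34.4% and 18.6% in the second. The 6 higher in the second are therefore not set apart from all genes. Camp, the cathelicidin gene of myelocytes, had 1496 CPM in sham, 1807 CPM in UAC and 29364 CPM in the UAC + miR-330 member. Ngp, a neutrophilic granule protein gene, had 181 CPM, 192 CPM and 2954 CPM, and Lcn2, which encodes the iron-binding lipocalin 2, had 60.7 CPM, 47.0 CPM and 2063 CPM. All 3 were highest in UAC + miR-330 cluster 18, but its Ngp level was below the 33722 CPM of the Ngp-highest cluster of the same library. Mmp8, neutrophil collagenase, had 37.4 CPM, 7356 CPM and 54.5 CPM, and the resistin-like gene Retnlg had 36.1 CPM, 13412 CPM and 84.1 CPM. Mmp8 and Retnlg were high only in the UAC member of the 3. Chi3l1 (2454 CPM in UAC cluster 8) went with them, and Orm1 (167 CPM in UAC + miR-330 cluster 18) went with Camp.

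Late neutrophil genes were, of the 3 members, highest in UAC cluster 8, where the 25 listed genes summed to 262355 CPM. UAC cluster 18, outside the choice, had 285901 CPM. The sum was 14974 CPM in sham cluster 14 and 181774 CPM in UAC + miR-330 cluster 18. Of 19 compared, 18 were higher and 0 lower in UAC than in sham (median log2 ratio 7.06, or 7.03 with genes at 0 set at their bound). Of 20 compared, 2 (Cd14 and Srgn) were higher and 15 lower in UAC + miR-330 than in UAC (median -4.25). S100a9, a calcium-binding protein gene that rises as neutrophils mature, was the most abundant gene of UAC cluster 8 at 149013 CPM. It was also first in UAC + miR-330 cluster 18 at 99144 CPM, against 5169.6 CPM in sham cluster 14. S100a8, its partner, had 4074 CPM, 86444 CPM and 69355 CPM in the members of sham, of UAC and of UAC + miR-330. High S100a8 and S100a9 therefore did not separate the UAC member from the UAC + miR-330 member, whereas other late genes did. Clec4d, a C-type lectin receptor gene, had 4, 3423 and 22 UMIs. Il1r2, the decoy receptor of interleukin 1, had 9, 4633 and 18 UMIs, and the protease inhibitor gene Slpi had 15, 9100 and 15 UMIs. In these genes the sham and the UAC + miR-330 members were both low and the UAC member was high.

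Genes of the NADPH oxidase, the enzyme of the respiratory burst, were higher in 4 of 5 for UAC against sham (median log2 ratio 2.42), and 1 was higher and 1 lower of 5 for UAC + miR-330 against UAC (median -0.11). Of all genes 38.0% were higher in the first step, and 34.4% higher and 18.6% lower in the second, so the second count is not set apart from them. Cybb, the catalytic subunit, had 154 CPM, 101 CPM and 1704 CPM and was the gene called higher in the second step. Ncf4, a cytosolic subunit, had 23.2 CPM, 462 CPM and 160.5 CPM and was the gene called lower.

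Markers of some other cell types, namely mast cells with basophils, eosinophils and red cells, and the gene Ighm were abundant in sham cluster 14. Of these, the mast cell, basophil and eosinophil markers were also abundant in UAC + miR-330 cluster 18. The part of these markers in the levels above was not tested, and doublets were not treated. Mast cell and basophil markers, with 19 of 23 listed genes in the tables, had at least 1 UMI for 17 genes in sham cluster 14, 14 in UAC cluster 8 and 18 in UAC + miR-330 cluster 18. They summed to 8956 CPM, 479 CPM and 11048 CPM. Mcpt10, a mast cell protease gene, led the sum in sham at 5428 CPM and in UAC + miR-330 at 7895 CPM. Prss34, a basophil protease gene, had 72, 0 and 232 UMIs in the 3 members, and Cpa3, mast cell carboxypeptidase, had 966, 1 and 794. Mast cell and basophil markers thus lay in the same members as the primary granule proteases. UAC cluster 13, also high in those proteases, summed to 15512 CPM, and UAC cluster 18, high in defensins, to 124 CPM. In UAC cluster 8 the sum came mainly from Osm, a cytokine gene, at 452 CPM, while Gata2, Prss34, Hpgds, Il4 and Slc18a2 were at 0. Of 14 compared, 13 were lower and 1 (Osm) higher in UAC than in sham, with a median of -7.66 (-6.81 at the bound), counts that the 50 UMI minimum largely fixes. Of 13, 12 were higher and 1 (Osm) lower in UAC + miR-330 than in UAC, with a median of 7.04 (6.49 at the bound). Over all clusters the first step went the other way, with 7 higher and 0 lower of 17 (median 0.88), and in the second 0 were higher and 1 lower of 17 (median -0.01). Of all genes over all clusters, 2.30% were higher and 1.88% lower in the first step, and 2.30% and 0.870% in the second. The mast cell protease genes are close copies, so their split by name is uncertain too.

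Eosinophil markers, with 8 of 9 listed genes in the tables, summed to 3494 CPM in sham cluster 14, 89.4 CPM in UAC cluster 8 and 2339 CPM in UAC + miR-330 cluster 18. Prg2, which encodes major basic protein, made most of the sum, 3101 CPM in sham and 2283 CPM in UAC + miR-330. Epx, eosinophil peroxidase, had 401 UMIs in sham, 0 in UAC and 51 in UAC + miR-330, so its level stood further below that of Prg2 in UAC + miR-330 than in sham. Of 5 compared, 4 were lower and 1 (Siglec5) higher in UAC than in sham (median -6.94). Of 4, 3 were higher and 1 (Siglec5) lower in UAC + miR-330 than in UAC (median 4.70, or 3.40 at the bound).

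Red cell genes and Ighm were, among the members, a large part of sham cluster 14 only. Erythroid markers made up 7.73% of its UMIs, where all 14 genes in the tables, of 18 listed, had a UMI and Hba-a1, an alpha globin gene, at 50471 CPM. The sum was 87.6 CPM in UAC cluster 8 and 96.5 CPM in UAC + miR-330 cluster 18, where Alas2, the first enzyme of haem synthesis in red cells, was at 0 in both. All 12 compared were lower in UAC than in sham (median -8.69, or -7.30 at the bound), which the 50 UMI minimum largely fixes. Of 3, 1, Tfrc, was higher in UAC + miR-330 than in UAC (median -0.38). Over all clusters 5 of 14 were lower and 0 higher for UAC against sham (median 0.07), beside 1.88% of all genes lower. For UAC + miR-330 against UAC, 7 of 14 were higher there and 0 lower (median 0.82), beside 2.30% of all genes higher. The most abundant entries of sham cluster 14 were the unnamed AABR07060872.1 at 192995 CPM and LOC103694857 at 87458 CPM. B cell markers made up 8.32% of sham cluster 14, nearly all of it Ighm, the heavy chain of IgM, at 81935 CPM, against a median of 3974 CPM in the other sham clusters. They summed to 1423 CPM in UAC cluster 8 and 707 CPM in UAC + miR-330 cluster 18, with a UMI for all 17 genes in the tables in each. Of 9 compared, 2 were lower in UAC than in sham (median -0.56), and 2 of 8 were lower in UAC + miR-330 than in UAC (median -0.88), near the 21.0% and 18.6% of all genes. Genes with mitochondrial, ribosomal protein, haemoglobin or immunoglobulin names together took 29.7% of the UMIs of sham cluster 14, 4.38% of UAC cluster 8 and 10.8% of UAC + miR-330 cluster 18. Entries without such names, among them AABR07060872.1 and LOC103694857, are not in these shares, and what they encode was not examined. The mitochondrial share alone was 6.47%, 1.71% and 4.69%.

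The labels name chondrocytes and osteoclasts as the cell types, and skeletal and stromal markers were scarce in the members outside sham. The list, with 18 of 19 genes in the tables, summed to 5352 CPM in sham cluster 14, 201 CPM in UAC cluster 8 and 148 CPM in UAC + miR-330 cluster 18. Col1a1, the main bone collagen, led in each at 3105 CPM, 77.7 CPM and 50.8 CPM, and Matn1 and Cdh5 were at 0 in all 3. All 11 compared were lower in UAC than in sham (median log2 ratio -4.22), and 1 of 6, the osteocalcin gene Bglap, was lower in UAC + miR-330 than in UAC (median -0.61).

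Monocyte and macrophage markers summed to 1076 CPM in sham cluster 14, where C1qa, a complement subunit of tissue macrophages, led at 254 CPM. The sums were 496 CPM in UAC cluster 8 and 471 CPM in UAC + miR-330 cluster 18, led by the galectin gene Lgals3, and Cx3cr1, Ms4a7, Cd163 and Marco were at 0 in both. Of 9 compared, 6 were lower and 1 higher in UAC than in sham (median -2.68), and of 10, 3 were higher and 1 lower in UAC + miR-330 than in UAC (median 0.55). Of all genes 38.0% were higher and 21.0% lower in the first step, and 34.4% and 18.6% in the second. The second count of these markers is not set apart from all genes. Dendritic cell markers summed to 1523 CPM in sham, 382 CPM in UAC and 115 CPM in UAC + miR-330, led by the class II invariant chain gene Cd74. They were lower in 3 of 6 in the first step (median -1.15) and in 5 of 6 in the second (median -1.74), with 0 higher in both. T and NK cell markers summed to 38.1 CPM, 14.9 CPM and 112 CPM, and the last was mostly Gzmb at 107 CPM, the only gene of the list that could be compared. Platelet markers summed to 37.4 CPM, 72.3 CPM and 18.1 CPM. Of 2 compared between UAC and sham, the integrin gene Itgb3 was higher and the platelet factor gene Pf4 lower, and the median of 0.13 changed sign when centred. Ppbp, Gp1ba, Gp6, Treml1 and Vwf were at 0 in all members. Macrophage and dendritic cell markers were thus, of the 3 members, highest in sham cluster 14. The whole sham library had 1009 CPM of monocyte and macrophage markers and 2328 CPM of dendritic cell markers. The platelet sum of UAC cluster 8 was nearly all Itgb3, at 70.5 CPM, with 9 of 11 markers at 0.

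**Figure D2:**
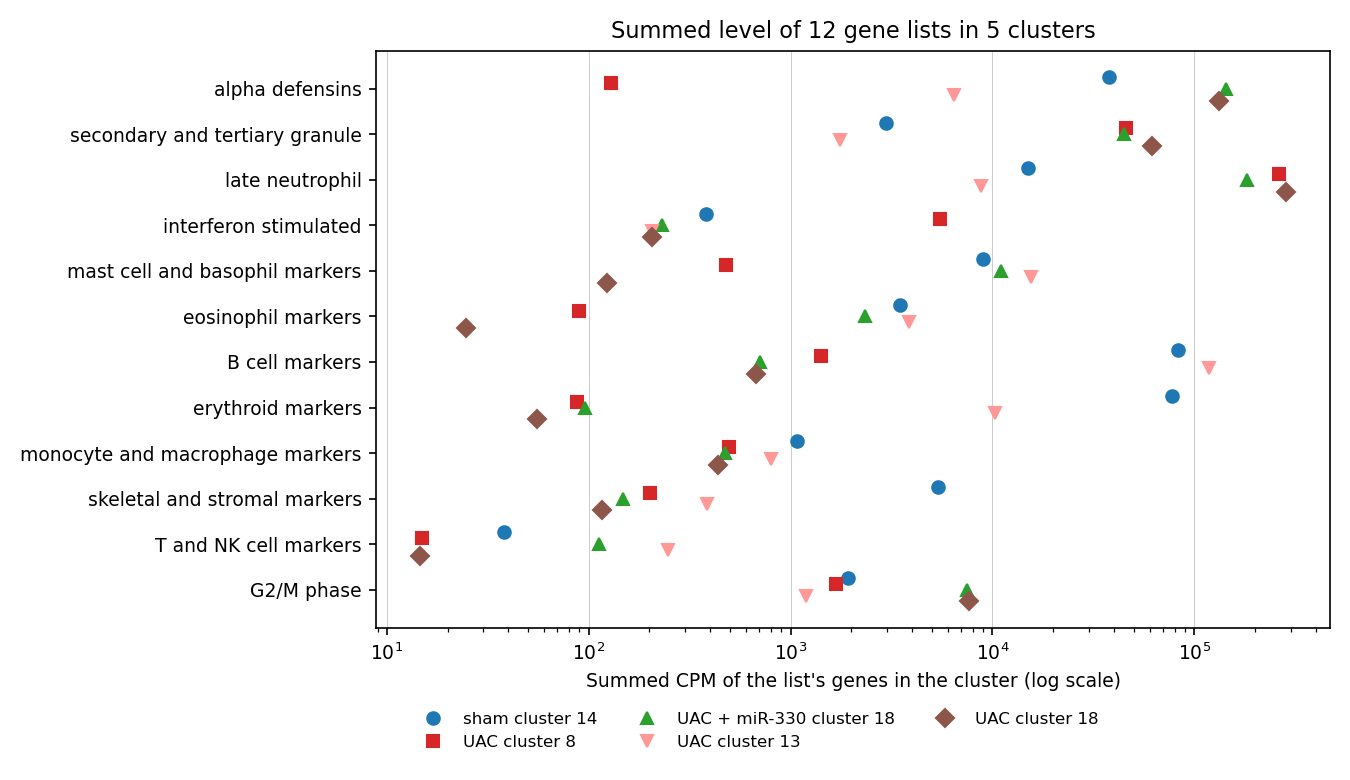
Summed CPM of 12 gene lists, on a log axis, in the 3 members and in UAC clusters 13 and 18. Alpha defensins stand at 130 CPM in UAC cluster 8 against 37752 in sham cluster 14 and 144251 in UAC + miR-330 cluster 18. The erythroid sum and the B cell sum, the latter nearly all Ighm, are high in sham cluster 14 and UAC cluster 13.

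Transcription factors of the granulocyte line had no single direction. Cebpe, which drives secondary granule genes, had 23.2 CPM in sham cluster 14 (16.3 to 32.2), 5.42 CPM in UAC cluster 8 (2.80 to 9.47) and 199 CPM in UAC + miR-330 cluster 18 (184 to 214). Gfi1, a repressor needed for neutrophil development, had 22.6 CPM, 4.97 CPM and 46.5 CPM. Both were lowest in the UAC member. Gata2, a factor of progenitors, mast cells and basophils, had 78, 0 and 103 UMIs, and Myb, a progenitor factor, had 51.6 CPM, 23.9 CPM and 95.6 CPM. Cebpb, which acts in emergency granulopoiesis and in mature cells, ran the other way with 133 CPM, 3843 CPM and 375 CPM, as did Bcl6 (115 CPM in UAC) and Spi1, which encodes PU.1 (462 CPM in UAC). Over the list, 12 were higher and 4 lower of 24 for UAC against sham (median log2 ratio 1.09), beside 38.0% and 21.0% of all genes. For UAC + miR-330 against UAC 9 were higher and 10 lower of 27, with a median of 0.13 that changed sign when centred, beside 34.4% and 18.6% of all genes.

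Stem and progenitor genes were few in every member. Their sums were 372 CPM, 262 CPM and 465 CPM in sham, UAC and UAC + miR-330, led in each by Cd48, a surface protein of many blood cells, and Cd34, Mecom and Nkx2-3 were at 0 in all 3. Of 5 compared, 3 (Gata2, Igfbp7 and Myb) were lower and 1 (Lmo2) higher for UAC against sham, with a median of -1.10. For UAC + miR-330 against UAC 3 of 5 were higher (Erg, Gata2 and Myb) with a median of 1.99. Beside these counts, 21.0% of all genes were lower for UAC against sham and 34.4% higher for UAC + miR-330 against UAC.

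Most of the receptors compared followed the late genes. Csf3r, the G-CSF receptor, had 6.45 CPM, 206 CPM and 18.9 CPM in the members of sham, of UAC and of UAC + miR-330, and Tlr2, a receptor for bacterial lipoproteins, had 6, 1272 and 34 UMIs. Il1rl1, the interleukin 33 receptor of mast cells and basophils, had 58, 2 and 180 UMIs and went the opposite way. In all, 8 were higher and 2 lower of 12 in the first step (median 2.62), and 2 higher and 7 lower of 12 in the second (median -1.84). Of all genes 38.0% were higher and 21.0% lower in the first step, and 34.4% and 18.6% in the second. The 2 lower in the first step are near the share of all genes.

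Cell cycle genes were, of the 3 members, highest in UAC + miR-330 cluster 18. The S phase genes summed to 908 CPM, 340.2 CPM and 2075 CPM in the order sham, UAC and UAC + miR-330, the last below the 2218 CPM of its whole library. G2/M genes summed to 1920.3 CPM, 1681 CPM and 7485 CPM, and UAC cluster 18 had 7625 CPM. Top2a, the topoisomerase of dividing cells, had 81.3 CPM in sham cluster 14 (67.7 to 96.8), 4 UMIs in UAC cluster 8 and 383 CPM in UAC + miR-330 cluster 18 (363 to 404). Mki67, the Ki-67 gene, had 85.2 CPM (71.3 to 101), 18.1 CPM (12.9 to 24.6) and 448 CPM (426 to 470.3). Levels of both were lowest in the UAC member and intermediate in sham. G2/M genes were lower in 11 and higher in 1 (Aurka) of 16 for UAC against sham (median log2 ratio -3.20), and higher in 30 and lower in 0 of 33 for UAC + miR-330 against UAC (median 5.16, or 4.93 at the bound). S phase genes were lower in 7 and higher in 1 (Fen1) of 11 (median -1.74), then higher in 25 and lower in 0 of 27 (median 3.74). The genes added in the second step pass the 50 UMIs through UAC + miR-330 cluster 18 and could hardly be lower there, so its counts are read with the sums. Dut, which keeps uracil out of DNA, had 206 CPM, 11.3 CPM and 326 CPM, and the ribonucleotide reductase gene Rrm2 had 14, 1 and 410 UMIs. The most Mki67 of the UAC + miR-330 library did not lie in cluster 18, as its highest cluster had 2216 CPM.

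Genes for making secreted proteins were, by their sum, lowest of the members in UAC cluster 8. The endoplasmic reticulum genes summed to 5669 CPM in sham cluster 14, 2332 CPM in UAC cluster 8 and 5550 CPM in UAC + miR-330 cluster 18. The whole libraries had 5353, 5098 and 5001 CPM in the same order. UAC cluster 13 had 10338 CPM, and UAC cluster 18, high in defensins, had 3129 CPM. The sum thus did not follow the defensins, and the part of plasma cell genes in it was not tested. Endoplasmic reticulum genes were lower in 27 and higher in 2 of 36 for UAC against sham (median -2.08) and higher in 28 and lower in 2 of 37 for UAC + miR-330 against UAC (median 2.07). Sdf2l1, a chaperone cofactor, had 86.5 CPM, 1.81 CPM and 89.3 CPM. The genes on the other side in both steps were Atf4 and Ddit3, factors of the integrated stress response, and Ddit3 had 52.9 CPM, 434 CPM and 55.4 CPM. Of the ribosome biogenesis genes, 4 were lower and 1 higher of 11 in the first step (median -0.94), with the other 6 not called and 21.0% of all genes lower, and 12 higher and 0 lower of 17 in the second (median 1.53). Npm1, nucleophosmin, had the most UMIs of that list at 329 CPM, 171 CPM and 383 CPM.

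Interferon and inflammatory genes set UAC cluster 8 apart from the other members. The interferon stimulated genes summed to 382 CPM in sham cluster 14, 5472 CPM in UAC cluster 8 and 230.2 CPM in UAC + miR-330 cluster 18. Ifit3, which blocks viral RNA translation, had 12.9 CPM (7.89 to 19.9), 1698 CPM (1644 to 1753) and 1.15 CPM (0.313 to 2.94). Isg15, a ubiquitin-like modifier, had 13, 2323 and 2 UMIs. Of 21 compared, 17 were higher and 1 (Bst2) lower for UAC against sham (median 2.66). For UAC + miR-330 against UAC, 18 of 22 were lower and 0 higher (median -3.39). Beside these counts, 38.0% of all genes were higher in the first step and 18.6% lower in the second. The list was low in the other members, so many of its genes pass the UMI minimum mainly through UAC cluster 8. This largely fixes the direction of the calls, and the counts are read with the sums. Over all clusters of the libraries, 0 of 29 interferon stimulated genes were called in either step. The inflammatory and NF-kB list summed to 1168 CPM, 18768 CPM and 994 CPM. Ccl6, a chemokine, led it in UAC at 6937 CPM, and Cxcl2, a neutrophil attractant, had 12, 3850 and 0 UMIs. Of 24 compared, 17 were higher and 2 (Ccl2 and Icam1) lower in the first step (median 2.27), and 17 of 23 lower with 0 higher in the second (median -3.21). Over all clusters this list, unlike the interferon genes, had calls: 8 of 30 were higher for UAC against sham (median 0.58), beside 2.30% of all genes. There 7 of 30 were lower for UAC + miR-330 against UAC (median -0.38), beside 0.870% of all genes. Heat shock and immediate early genes had no common direction for UAC against sham, with 5 higher and 5 lower of 16 and a median of 0.03 that changed sign when centred. In the second step 4 were higher and 8 lower of 16, median -0.94. Of all genes 38.0% were higher and 21.0% lower in the first step, and 34.4% and 18.6% in the second. The 5 higher in the first step and the 4 higher in the second are not set apart from all genes.

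Of the genes the study names as targets 4 were followed here, and these were low in the members apart from Il1b. Il1b, interleukin 1 beta, had 16.1 CPM in sham cluster 14 (10.4 to 23.8), 2158 CPM in UAC cluster 8 (2097 to 2220.1) and 28.4 CPM in UAC + miR-330 cluster 18 (23.1 to 34.6). Ctgf, a matricellular growth factor gene, had 97, 8 and 24 UMIs, the receptor gene Fgfr1 had 13, 2 and 1, and the erythropoietin receptor gene Epor had 16, 1 and 6. Il1b was higher (log2 ratio 7.03) and Ctgf lower (-4.03) for UAC against sham, the only 2 compared, and their median turned negative with 10 UMIs as the minimum. Il1b was lower for UAC + miR-330 against UAC, at -6.24, between clusters of unlike kind. Over all clusters it had 89.2, 147 and 111 CPM and was called in neither step (0.72 and -0.40). Among the 4 targets over all clusters, 1 other than Il1b was called lower and 0 higher for UAC against sham (median -0.24). There 1.88% of all genes were lower. In the second step 0 of the 4 were called (median 0.06).

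The largest rises from sham to UAC, in UMIs, included Clec4d from 4 to 3423, Nos2, the inducible nitric oxide synthase, from 3 to 2219, Prok2, a chemokine-like peptide gene, from 1 to 885, and Slpi from 15 to 9100. Of the genes at 0 in sham cluster 14, Mpzl2 had 431 UMIs and Lilrc2 305 in UAC cluster 8. The largest falls were the unnamed entry AC098959.1 from 1327 to 0, Alas2 from 873 to 0, Epx from 401 to 0, C1qa from 393 to 0 and Ms4a3 from 377 to 0, with 3 haemoglobin genes and 2 unnamed entries. The named falls are thus mostly red cell genes, with 1 eosinophil, 1 macrophage and 1 early granulocyte gene. From UAC to UAC + miR-330 the largest rises were AC098959.1 from 0 to 3344, Ms4a3 from 0 to 1997, RatNP-3b from 107 to 275306 and Prtn3 from 1 to 2404. Defa11, Np4, Defa5, Mcpt1l4, Mcpt8l2 and Mcpt10 made up the rest of the 10. The largest falls were Cxcl2 from 3850 to 0, Ifit1bl from 2921 to 1, Isg15 from 2323 to 2, Ifit3 from 3759 to 4, Ccl6 from 15355 to 25 and Slpi from 9100 to 15, with 4 unnamed entries.

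The counts of called genes differed with the UAC cluster that was used. With UAC cluster 18 in place of cluster 8, an alternative chosen after seeing the data, 2093 genes were called for UAC against sham, of which 1200 were called the same way and 112 the opposite way as before. With UAC cluster 13 the count was 544, with 225 the same way and 71 opposite. Higher genes were 39.2% of the 544 (213 higher, 331 lower) and 64.9% of the 2093. For UAC + miR-330 against UAC, cluster 18 gave 600 calls (371 the same way, 40 opposite) and cluster 13 gave 2735 (1047 the same way, 361 opposite). Of the 3 UAC clusters tried, UAC + miR-330 cluster 18 therefore differed in fewest genes from cluster 18, and sham cluster 14 in fewest from cluster 13.

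The placement of UMIs shows how much of each library's early granule RNA the members held. Sham cluster 14 held 66.3% of the Elane UMIs of its library (binomial 95% interval 64.0 to 68.6), UAC cluster 8 4.19% (3.60 to 4.85) and UAC + miR-330 cluster 18 86.9% (86.1 to 87.7). For Prtn3 the shares were 70.9%, 0.0618% and 88.7%, for Mpo 57.9%, 0.178% and 80.7%, and for Ctsg 73.9%, 0.202% and 82.6%. The members of sham and UAC + miR-330 hold most of the protease and Mpo UMIs of their libraries, and the UAC member next to none. In UAC 80.2% of Elane and 91.8% of Prtn3 lay in cluster 13. Np4 lay elsewhere than Elane in sham, where cluster 14 held 19.2% and cluster 10, the Ngp-highest cluster, 75.5%. Its share was 85.4% in UAC + miR-330 cluster 18 and 0.0797% in UAC cluster 8, with 87.7% in UAC cluster 18. Ms4a3 showed the same shift, with 32.7% in sham cluster 14, 57.5% in sham cluster 10 and 92.1% in UAC + miR-330 cluster 18. The cluster second in Elane, which is what leaving out cluster 13 makes of the UAC member, was in each library the Cxcr2-highest cluster, at 39.4 CPM in sham cluster 8, 78.2 CPM in UAC cluster 8 and 52.1 CPM in UAC + miR-330 cluster 6.

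Over all clusters of a library the early granule genes differed far less than between the members. Elane was at 21.4 CPM of the sham library (20.3 to 22.4), 44.6 CPM of UAC (43.2 to 46.0) and 66.8 CPM of UAC + miR-330 (65.2 to 68.4), with log2 ratios of 1.06, called higher, and 0.58, not called. Prtn3 (6.99, 17.5 and 27.9 CPM) and Ctsg (1165, 2971 and 5213 UMIs) were also called higher for UAC against sham, at 1.32 and 1.10. These are rises where the members show falls. Mpo had 2558, 4487 and 4858 UMIs in the libraries and was called in neither step. Its step from UAC to UAC + miR-330 of 0.04 became -0.09 when centred, and that of Ms4a3 changed from 0.10 to -0.03. RatNP-3b stood at 2121, 3125 and 3316 CPM, with the second step of 0.09 at -0.05 when centred.

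Of the 15 primary granule genes, 3 were higher and 0 lower over all clusters for UAC against sham (median log2 ratio 0.55), where 327 of 14235 genes (2.30%) were higher and 267 (1.88%) lower with a median of -0.02. For UAC + miR-330 against UAC 0 were higher and 0 lower (median 0.04), where 333 of 14485 genes (2.30%) were higher and 126 (0.870%) lower with a median of 0.13, and 222 higher and 204 lower once centred. The 4 defensins that could be compared were called in neither step, with medians of 0.46 and 0.19. This comparison of whole libraries was added after seeing the data.

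**Figure D3:**
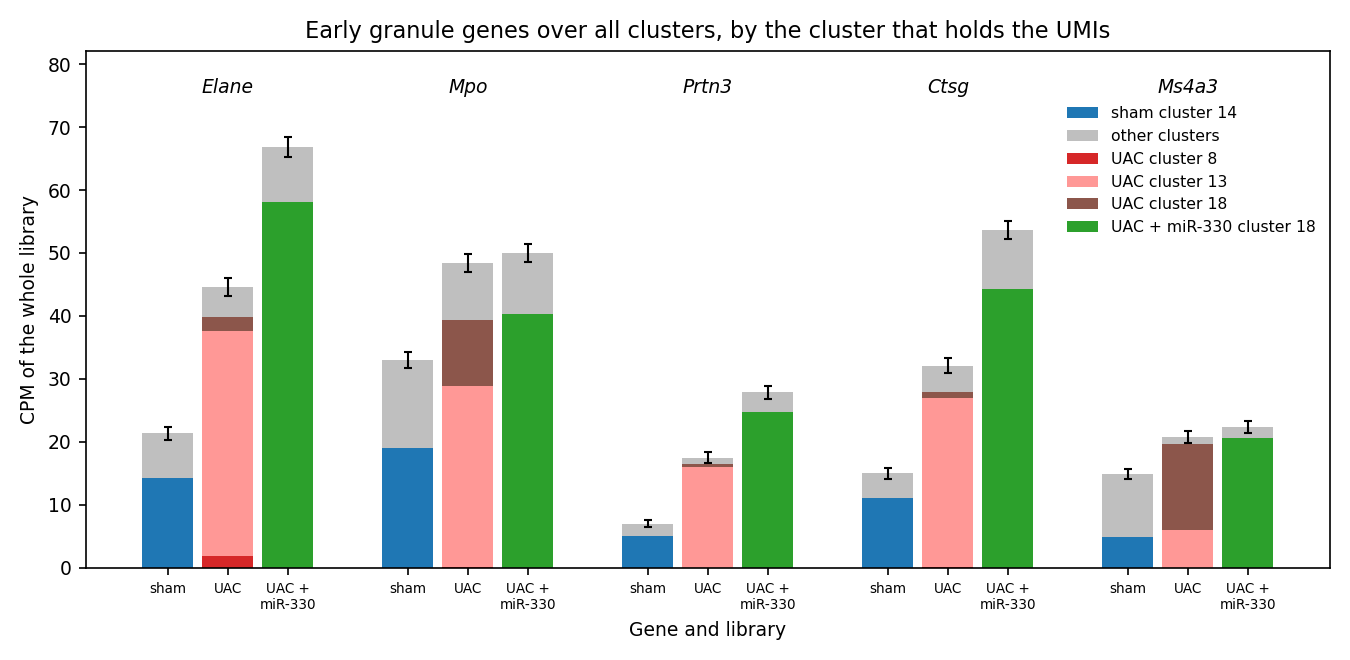
Level of 5 early granule genes over all clusters of each library, in CPM of the library, with each bar divided by the cluster that holds the UMIs and whiskers for the Poisson 95% interval of the total. Elane totals are 21.4, 44.6 and 66.8 CPM, and UAC cluster 8 is a thin part of the UAC bars, whose UMIs lie mainly in UAC clusters 13 and 18.

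Many of the genes that separate the members lie in groups on the rat genome (RefSeq, assembly GRCr8). Elane and Prtn3 are neighbours on chromosome 7, and Ctsg on chromosome 15 stands between Mcpt10 and Gzmn. Mpo on chromosome 10 is followed by Lpo, Mks1 and Epx, Ms4a3 on chromosome 1 is next to Ms4a2, and Np4, Defa11 and RatNP-3b follow each other on chromosome 16 in a run that also holds Defa5. Promoters, taken as 250 bases before to 50 bases after each gene start, were in the RefSeq table for 18 of the 26 genes of the primary granule and defensin lists, and Elane was not among them.

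The letters AGGAAGTG, picked after these sequences had been read, occur on either strand in 5 of these 18 promoters (Ms4a3, Cst7, Prtn3, Mpo and Serpinb1a) and in 1152 of all 33469 promoters, 3.44%. TTNNGNAA occurs in 9 of the 18 and in 41.3% of all promoters, and AACNG in 16 of the 18 and in 81.4%. A match is a description and not a binding site. The promoters of Prtn3 (chr7:10476147-10476446, minus strand), Mpo (chr10:73092152-73092451, plus strand) and Ms4a3 (chr1:217904858-217905157, minus strand) are shown because they carry AGGAAGTG, which 13 of the 18 promoters, among them those of Ctsg, Prss57, Nkg7, Ctsc, Np4, Defa11 and RatNP-3b, do not, in GRCr8, 5′ to 3′ along the gene, with AGGAAGTG or its reverse complement in capitals.
Prtn3: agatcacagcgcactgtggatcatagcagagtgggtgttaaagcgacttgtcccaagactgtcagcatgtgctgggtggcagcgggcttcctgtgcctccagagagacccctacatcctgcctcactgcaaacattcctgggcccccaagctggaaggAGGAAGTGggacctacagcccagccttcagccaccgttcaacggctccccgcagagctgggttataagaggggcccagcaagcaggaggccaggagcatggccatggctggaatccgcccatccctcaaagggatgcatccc
Mpo: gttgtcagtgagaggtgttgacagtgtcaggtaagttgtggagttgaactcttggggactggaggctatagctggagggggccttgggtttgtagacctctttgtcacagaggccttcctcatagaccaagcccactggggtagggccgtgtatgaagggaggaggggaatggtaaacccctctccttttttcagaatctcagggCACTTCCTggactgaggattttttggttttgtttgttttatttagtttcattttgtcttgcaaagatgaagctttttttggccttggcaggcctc
Ms4a3: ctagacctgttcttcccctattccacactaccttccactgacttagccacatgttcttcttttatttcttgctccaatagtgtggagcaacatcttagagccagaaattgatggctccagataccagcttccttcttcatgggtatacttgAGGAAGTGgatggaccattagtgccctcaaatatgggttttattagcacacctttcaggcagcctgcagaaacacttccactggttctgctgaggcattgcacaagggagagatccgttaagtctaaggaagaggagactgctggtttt
In Mpo the match lies on the strand opposite to the gene, and in Prtn3 and Ms4a3 on the gene's own strand.

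The agent that separates the UAC + miR-330 group from UAC is a microRNA, which pairs with messenger RNAs mainly through its seed, bases 2 to 8. Both mature arms of rat miR-330 in RefSeq are shown with the seed in capitals, because the labels do not say which arm the AAV carried. The seeds differ.
rno-miR-330-5p: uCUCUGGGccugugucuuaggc
rno-miR-330-3p: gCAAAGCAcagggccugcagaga
Whether either arm acts on the genes above was not tested.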

How the data were processed

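Single-cell RNA of 3 pooled libraries was prepared with 10x Genomics 3′ chemistry, so a UMI stands for 1 captured transcript whatever its length. The authors list Cell Ranger 7.0, STAR and Seurat 4.0.1, with builds GRCh38 and mm10, although the deposited identifiers are rat Ensembl genes. The deposited value of a gene in a cluster is a signal, its mean count, and each divided by the smallest positive mean of its cluster gave whole UMIs in 100% of values (tolerance 0.001). The authors' log2 fold changes and adjusted p-values compare clusters within a library and were not used. UMIs of repeated gene names were added. Levels, Poisson and binomial intervals and ratios were computed with Python 3.11.15, numpy 2.4.6, pandas 2.3.3 and scipy 1.17.1. On simulated counts all 200 changed genes were called in each comparison, with 7 and 3 unchanged genes. With 1 library per group no model was fitted.

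The members and lists were chosen with earlier results of these data known. Named genes are the markers and primary granule and defensin genes, up to 3 most abundant and 3 called each way per other list, 10 highest by ratio to other clusters, 10 largest rises and falls with at least 100 UMIs, the 10 most abundant, and 4 of the study's targets; Ngp, Prss34, leading genes and genes at 0 were named beyond these after their values were seen. Doublets and free RNA were not treated.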

Additional observations from a re-analysis of the deposited data

Results flagged for a closer look

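Elane in UAC cluster 13, which the choice of clusters left out, stood out as a signal in data outside the comparisons. Its level there was 968 CPM (936 to 1002, 3312 UMIs), against 78.2 CPM in UAC cluster 8, the cluster used in its place. The difference was not tested, since each group had 1 library.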

How the results depend on the processing

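No paired analysis was possible because each group has 1 library and replicate number 1 links different rats. Counts of called genes in the members were 2921 for UAC against sham and 3408 for UAC + miR-330 against UAC. A minimum of 10 UMIs gave 4434 for the first, of which 47.5% were higher, and 200 UMIs gave 1366 (78.5% higher) and 1642 (53.9% higher), by construction from other numbers of genes tested. UAC cluster 13 in place of cluster 8 gave 544 for the first, and UAC cluster 18 gave 600 for the second; the cause was not tested. The other folds, pseudocount and scalings kept both counts within 1.5 times. Over all clusters a fold of 1.5 gave 1584 and 1860, by construction more than 594 and 459.

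Choosing by Mpo, by Prtn3 or with no cluster left out kept 2 of the 3 clusters. The share of UMIs became 26.0%, 50.3% and 30.4% of the clusters highest in Elane, Ltf and Cxcr2 together. Ltf, however, had at most 7 UMIs in a cluster so chosen, and the UAC sum holds 2 clusters against 3 in the others. The share was 1.74%, 2.78% and 3.80% with genes named as those of mitochondria, ribosomal proteins, haemoglobins and immunoglobulins left out, while unnamed entries stayed in. With UAC cluster 18 it was 3.56% and with cluster 13 3.69%. List medians that reversed were heat shock for UAC against sham (-0.0173 with 10 UMIs, -0.47 centred), platelet markers (-0.37 centred), study targets (-3.46 with 10 UMIs) and, for UAC + miR-330 against UAC, transcription factors (-0.24 centred); the cause was not tested. Of 98 list medians in the same clusters, 17 stayed the same, 76 moved and 5, those given above, reversed. Of 1680 log2 ratios of named genes in the same clusters, 1289 stayed within their counting interval, 391 moved and 0 of the called ones reversed. Alternatives that replace the UAC cluster, compare whole libraries or count shared leading genes were chosen after seeing the data. Depth limits genes with under 50 UMIs, and no interval covers variation between rats.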
